A study of Arabidopsis thaliana with 12 samples.

Results

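The comparison described here sets seedlings of the line camta6-5 against the wild type Col-0 of Arabidopsis thaliana, both kept on 200 mM NaCl for 16 hours. Its members are the 3 camta6-5 NaCl and the 3 wild-type NaCl libraries, 6 of the 12 libraries of the series, and the genes that passed a filter on low counts, 18515 of the 33602 genes listed. The other 6 libraries are camta6-5 and Col-0 seedlings on the same medium with 0 mM NaCl, 3 of each, and they entered the fit and serve as the background below. Seeds of both lines were cold stratified and sown on agar-solidified quarter-strength MS medium, and the material is described as pre-germinated seedlings, without an age, a pool size or the type of lesion in camta6-5. A single mutant line stands for the genotype, and nothing in the labels says that the 3 libraries of a group came from separate cultures. The p-values therefore measure the spread between these libraries, which may be technical. The question the study put to this comparison was how camta6 seed responds to salt as it germinates.

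CAMTA proteins are transcription factors that bind calmodulin, the main calcium sensor protein of the cytosol, and they recognise promoters through a short element with the core CGCG. A germinating seed either goes on to seedling growth or, under salt and drought, holds growth back through abscisic acid (ABA). ABA binds receptors of the PYR/PYL family, which then inhibit clade A protein phosphatases. This releases SnRK2 kinases to activate bZIP factors such as ABI5, whose target genes carry the ABA response element and encode seed proteins that protect cells in the dry state. Sodium is removed from the cytosol by Na+/H+ exchangers, SOS1 at the plasma membrane and NHX proteins at the vacuole, driven by the proton gradients that H+ pumps build.

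Levels are given as CPM (read counts relative to the TMM-adjusted total of the library), for replicates 1, 2 and 3 in that order, and in what follows wild type and camta6-5 mean the NaCl libraries unless the control is named. CPM are not divided by gene length, so levels are compared only between libraries and never between genes. A difference is camta6-5 minus wild type on the log2 scale ± its standard error, from edgeR's quasi-likelihood test, and a gene is called higher or lower where its p, adjusted over all 18515 genes by Benjamini-Hochberg, is under 0.05. In bulk RNA, fewer cells of a type and less RNA per cell cannot be told apart.

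CAMTA6 itself (AT3G16940, chromosome 3, 5781775 to 5786280 on TAIR10) had 33.2, 31.8 and 27.7 CPM in wild type and 38.2, 41.1 and 52.3 CPM in camta6-5. All 3 camta6-5 libraries lay above all 3 wild-type libraries, so by label the mutant had more CAMTA6 reads than wild type (log2 0.50 ± 0.13, edgeR adjusted p = 0.00381), and without NaCl the means were 17.8 ± 2.79 and 34.8 ± 1.34 CPM (SD, n = 3, log2 0.96 ± 0.13, edgeR adjusted p = 0.00661). Reads summed over the gene leave unknown which parts of the transcript were present, and the genotype is used here as the label of the library. A much larger gap was found at TPR1 (AT1G80490, chromosome 1, 30260903 to 30267038), a corepressor of the TOPLESS family, with 77.8, 80.8 and 73.3 CPM in wild type and 7.77, 8.12 and 5.96 CPM in camta6-5. The groups were far apart with and without NaCl, where the control means were 101 ± 1.88 and 6.34 ± 1.57 CPM, and the difference under NaCl was log2 -3.40 ± 0.15, edgeR adjusted p = 9.71e-09. Of the other 4 members of the corepressor family, TPL was higher (from 138 ± 4.41 to 229.5 ± 4.93 CPM), TPR2 was lower, at -0.22, and TPR3 and TPR4 were not called. The counts do not tell whether the TPR1 difference belongs to the camta6-5 allele or to another change in the line, so every difference below is one between the 2 lines as labelled.

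The 5 remaining CAMTA genes were all lower in camta6-5. CAMTA4 went from 56.8, 46.5 and 42.1 CPM in wild type to 27.1, 22 and 30.4 CPM (log2 -0.87 ± 0.13, edgeR adjusted p = 5.89e-05), and its libraries did not overlap. Differences of -0.39, -0.38, -0.32 and -0.32 were measured for CAMTA5, CAMTA3, CAMTA1 and CAMTA2, of which CAMTA3 is known for holding back defence genes. Against the control libraries CAMTA2, CAMTA3, CAMTA4 and CAMTA5 had higher means under NaCl in both genotypes, as did CAMTA6. CAMTA4 had 15.2 ± 0.989 and 14.2 ± 1.22 CPM in wild-type and camta6-5 control. For CAMTA2 the camta6-5 means were close, at 39.2 CPM with NaCl and 38.5 CPM in control. CAMTA1 had a higher mean under NaCl only in wild type, and its camta6-5 means were 39.2 CPM with NaCl and 41.0 CPM in control. With the 2 camta6-5 libraries richest in 18S rRNA left out, which leaves 1 library in that group, 2 of the 5 were called.

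Across all tested genes, 62.3% were called: 6259 genes (33.8%) were higher and 5283 (28.5%) lower in camta6-5. By at least 2-fold, 2377 genes (12.8%) were higher and 945 (5.10%) lower. The excess of higher calls depended on the settings. It was gone with only the 6 NaCl libraries in the fit (5867 higher and 5887 lower) and smaller with RLE scaling factors (5911 and 5735). By at least 2-fold it remained with only the NaCl libraries, at 2058 and 979. Over all levels the higher genes also moved further, with a median fold of 1.69 against 1.46 for the lower genes and 811 against 172 genes past 4-fold. The balance depended on the level. Under 1 CPM 34.8% of genes were higher and 10.3% lower, 791 and 213 of them by at least 2-fold, whereas at 100 CPM or more 30.8% were higher and 40.4% lower, 54 and 92 by at least 2-fold. The filter used all 12 libraries, so a gene of low level could pass through the control libraries or through a single NaCl group. With only the 6 NaCl libraries 17821 genes passed it. How far the filter shaped the balance at low levels was not tested. Libraries of the 2 groups did not overlap for 70.0% of all genes. The median difference of all genes was 0.05, so a list whose median is near that value did not stand apart from the genes around it. The same contrast without NaCl called 40 genes, or 0.216%. Because so many genes were called, counts of lists below are to be read against these shares.

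Total counts per library ran from 29473212 to 35241845 in camta6-5 and from 32887239 to 34849175 in wild type. At that depth 3 counts over a group, the limit that a count of 0 allows, come to 0.0287 CPM (wild type) and 0.0302 CPM (camta6-5). Reads on 18S rRNA were unevenly spread, with 0.0312, 0.0744 and 0.0211% of counts in the wild-type libraries and 0.573, 0.422 and 0.0653% in the camta6-5 libraries, and mitochondria-encoded genes took 0.0744, 0.149 and 0.0563% and 0.536, 0.355 and 0.103%. On the first principal component of the 6 libraries, which held 87.3% of the variance, the camta6-5 libraries stood at -43.2, -45.9 and -39.0 and the wild-type libraries at 43.3, 48.6 and 36.2. Marker genes of other tissues moved with the groups as well. Of 5 tested root markers 4 were higher and 1, SCR, was lower, and both called shoot meristem markers (CLV1 and STM, of 3 tested) were higher. The 3 seed coat markers that passed the filter (WRKY44, MUM2 and MUM4) were higher. The others listed (BAN, TT2, TT10, TT12 and DP1) were at or near 0 counts and were not tested. Of 4 tested embryo markers 3 were lower, and of 4 tested endosperm markers 2 were higher and 1 lower. Summed over each list, root markers took 0.00573 ± 0.000331% of counts in wild type and 0.00689 ± 0.000291% in camta6-5, seed coat markers 0.00115 ± 0.000104% and 0.00183 ± 3.24e-05%, shoot meristem markers 0.0008 ± 7.80e-05% and 0.0014 ± 5.06e-05%, embryo markers 0.0665 ± 0.00507% and 0.0402 ± 0.000811%, and endosperm markers 0.00641 ± 0.000955% and 0.0078 ± 0.00136% (SD, n = 3). Most of the root sum was SCR, the lower root marker, at 43.8 ± 2.35 and 38.3 ± 0.783 CPM. SHR, a higher one, had 2.59 ± 0.823 and 13.3 ± 2.94 CPM. Most of the embryo sum was ABI3, at 610 ± 49.0 and 391 ± 6.98 CPM. Both pollen markers were at 0 in every library. The part of tissue composition in the results below was not tested.

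**Figure D1:**
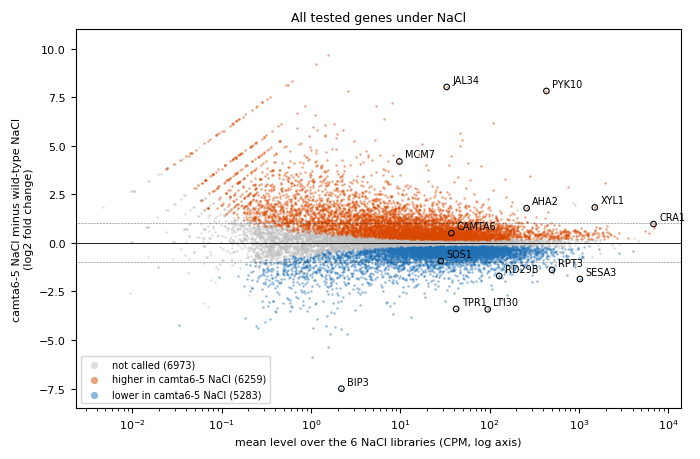
Each point is 1 of the 18515 tested genes, placed by its mean level over the 6 NaCl libraries (CPM, log axis) and its log2 difference, camta6-5 NaCl minus wild-type NaCl, with called genes in orange (6259 higher) and blue (5283 lower) and dotted lines at 2-fold. Called genes reach further upward, to 9.66, than downward, to -7.51 at BIP3. JAL34 and PYK10 stand at 8.03 and 7.83.

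**Figure D2:**
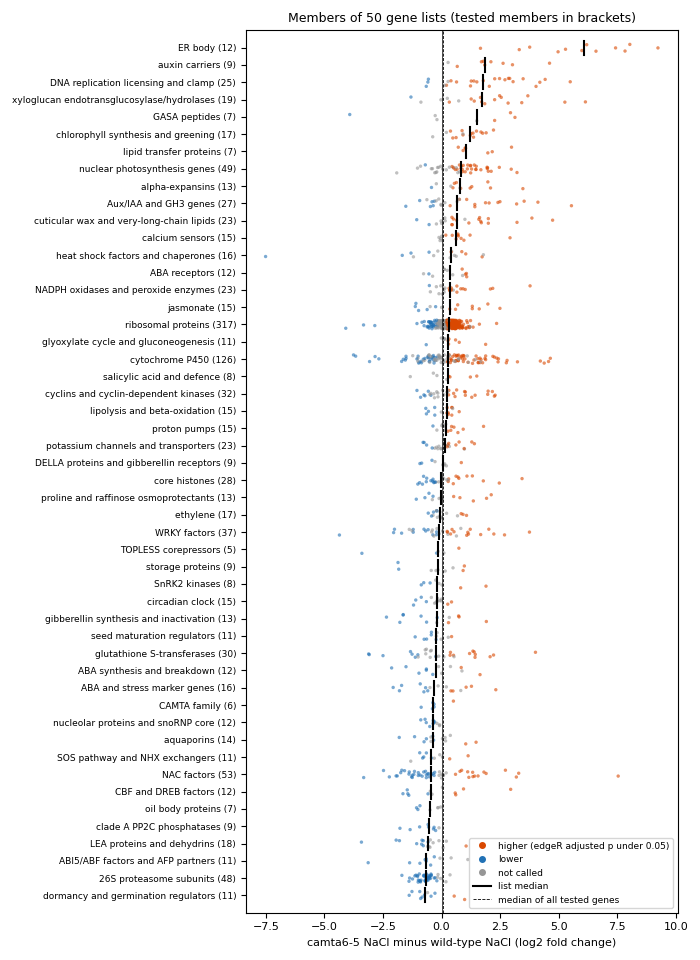
Each point is a tested member of 1 of 50 gene lists, placed by its log2 difference, with called members coloured, the list's median as a black bar and the median of all genes, 0.05, as a dashed line. ER body genes stand at the top with a median of 6.09 and dormancy regulators at the bottom with -0.73.

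In the ABA pathway, most phosphatase genes were lower, while the share of receptor genes that were higher was close to the 33.8% of all genes. Of 12 tested PYR/PYL receptor genes 4 were higher and 1 lower, while of 9 clade A phosphatase genes 0 were higher and 8 lower. The receptor gene PYR1 had 35.3, 32.6 and 43.4 CPM in wild type and 69.8, 83.5 and 78.4 CPM in camta6-5 (log2 1.06 ± 0.11, edgeR adjusted p = 2.7e-06). PYL4 had 25.6, 25.2 and 28.2 and 46.2, 65.9 and 47.7 CPM (log2 1.02 ± 0.15, edgeR adjusted p = 6.8e-05). Neither gene's libraries overlapped, and PYL1 and PYL2 were higher as well, by 0.88 and 1.07. All 4 had more counts without NaCl, where PYR1 stood at 136 ± 6.83 CPM (wild type) and 166 ± 12.5 CPM (camta6-5). PYL9 was lower (-0.54), and PYL5 (0.24 ± 0.15) and PYL8 (0.11 ± 0.10) were among the 7 not called.

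Among the phosphatases, HAI3 had 172, 171 and 124 CPM in wild type and 63, 51.1 and 70 CPM in camta6-5, with every camta6-5 library below every wild-type library (log2 -1.34 ± 0.21, edgeR adjusted p = 0.000119). HAI2 had 61.4, 62.5 and 56.2 and 34, 27 and 32.9 CPM (log2 -0.94 ± 0.19, edgeR adjusted p = 0.000755), and AHG1, which acts mainly in seeds, had 159, 130.2 and 130.2 and 111, 73.2 and 101 CPM (log2 -0.56 ± 0.18, edgeR adjusted p = 0.0155). HAI1 (log2 -1.78), HAB1 (-0.58), HAB2 (-0.35), ABI1 (-0.32) and AHG3 (-0.26) were the other lower genes, and ABI2 was not called at -0.11 ± 0.13. The list's median was -0.56. Without the 2 camta6-5 libraries richest in 18S rRNA, 3 of the 8 were called. SnRK2 kinase genes were split, with SNRK2.6, SNRK2.10 and SNRK2.4 lower (-0.87, -0.76 and -0.49) and SNRK2.1 and SNRK2.5 higher (0.81 and 1.89). SNRK2.2 and SNRK2.3, which with SNRK2.6 carry most ABA signalling, differed by 0.02 ± 0.073 and -0.11 ± 0.081 and were not called.

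The transcription factors at the end of the pathway were mostly lower. Of 11 tested genes of the ABI5/ABF group and their AFP partners 8 were lower and 0 higher, with a median of -0.65. ABI5 (AT2G36270, chromosome 2, 15204764 to 15207528) had 232, 234 and 211 CPM in wild type and 157, 130.0 and 143 CPM in camta6-5. Its groups did not overlap (log2 -0.65 ± 0.11, edgeR adjusted p = 0.000142), and both stood above the control means of 56.2 ± 6.02 and 69.3 ± 9.12 CPM. DPBF2, another bZIP factor of seeds, was at 1.99 ± 0.817 and 0.225 ± 0.0783 CPM (log2 -3.13), ABF1 was lower, at -1.37, and AFP1 and AFP2, whose products bind ABI5, were at -0.93 and -0.70. EEL and ABF3 differed by 0.40 ± 0.17 and 1.12 ± 0.68 and were not called. ABI3, the B3 factor that governs seed maturation, had 628, 648 and 555 CPM in wild type and 398, 384 and 391 CPM in camta6-5 (log2 -0.64 ± 0.076, edgeR adjusted p = 1.07e-05), again with no overlap. VAL1, a repressor of the seed programme, was also lower (-0.44). ABI4 was the 1 maturation regulator called higher, with 89.3, 85.6 and 86.5 and 105, 133 and 114 CPM (log2 0.43 ± 0.1, edgeR adjusted p = 0.00227). In all, 6 of 11 tested maturation regulators were lower.

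Among 11 tested regulators of dormancy and germination 8 were lower and 2 higher, and the median of -0.73 was the lowest of the 50 lists. The phosphatase-like gene RDO5 had 157, 208 and 158 CPM in wild type and 74.9, 77 and 65.4 CPM in camta6-5 (log2 -1.27 ± 0.20, edgeR adjusted p = 0.000134). SOMNUS (SOM), a zinc finger gene that holds back germination, had 530.4, 557 and 456 and 274, 209 and 346 CPM (log2 -0.90 ± 0.17, edgeR adjusted p = 0.000581). PIF1, a light-regulated repressor of germination that acts upstream of SOMNUS, had 331, 343 and 367 and 181, 189.6 and 174 CPM (log2 -0.93 ± 0.11, edgeR adjusted p = 1.44e-05). In these 3 genes all camta6-5 libraries lay below all wild-type libraries. HUB1 and CHO1 were lower, at -0.73 and -0.45, while SPT, a bHLH factor, was higher (0.98), and DOG1 had 1.76 ± 0.47 and 0.673 ± 0.0658 CPM (log2 -1.38). DAG2 was called higher (log2 0.54 ± 0.21, edgeR adjusted p = 0.0414), but not in 11 of 15 alternative settings.

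Genes of ABA turnover went both ways. CYP707A2, the ABA 8'-hydroxylase of imbibed seeds, had 109, 135 and 109 CPM in wild type and 42.5, 42.2 and 38.3 CPM in camta6-5, with no overlap (log2 -1.52 ± 0.19, edgeR adjusted p = 2.08e-05). Its relative CYP707A3 differed the other way, at 16.5, 16.8 and 14.9 and 52.2, 41.9 and 56.1 CPM (log2 1.64 ± 0.12, edgeR adjusted p = 2.69e-07). Of the synthesis genes, ABA1, ABA3 and AAO3 were lower (-0.38, -0.97 and -0.65), as were NCED6 and NCED9 of the rate-limiting dioxygenases (-2.13 and -0.65), while NCED3 and NCED5 were not called (0.38 ± 0.28 and -0.13 ± 0.23). In the list, 6 of 12 tested genes were lower and 2 higher.

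The late embryogenesis abundant (LEA) proteins and dehydrins shield other proteins and membranes as a seed dries. Of 18 tested LEA genes 9 were lower and 1 higher, and the median was -0.59. The dehydrin gene LTI30 (AT3G50970) had 186, 182 and 156 CPM in wild type and 20.4, 13.5 and 15 CPM in camta6-5, which did not overlap (log2 -3.42 ± 0.24, edgeR adjusted p = 2.03e-07). LEA7 had 531, 493 and 579 and 162, 119 and 137 CPM (log2 -1.94 ± 0.25, edgeR adjusted p = 1.94e-05), and EM6 had 1287, 1235 and 1138 and 647, 464 and 639.6 CPM (log2 -1.06 ± 0.26, edgeR adjusted p = 0.00296), again with every camta6-5 library lower. ERD14, another dehydrin gene, went from 48 ± 7.07 to 13.8 ± 0.814 CPM, a level below both control means (43.1 ± 9.55 and 31.9 ± 5.12 CPM). RAB18 (-0.50 ± 0.22), LEA4-5 (-0.36 ± 0.26), LEA18 (0.07 ± 0.21) and M17 (-0.60 ± 0.34) were not called, and ERD10 was higher (1.04). Summed over the list, LEA genes took 1.16, 1.03 and 1.02% of counts in the wild-type libraries and 0.716, 0.538 and 0.792% in the camta6-5 libraries, and the groups did not overlap. With only the 6 NaCl libraries in the fit 14 of the 18 were called lower, and without the 2 camta6-5 libraries richest in 18S rRNA 5 were.

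The upstream regions of 4 genes are shown because they carry the ABA response element and the genes behind them differed to unlike degrees. Each is the 250 bases before the annotated start of the gene, read 5' to 3' on the gene's strand from the RefSeq assembly TAIR10.1, with the core ACGTG on either strand in capitals. A run of CACGTG reads as the core on both strands. RD29B is at chr5:21236771-21237020, plus strand, LEA7 at chr1:19619474-19619723, plus strand, EM6 at chr2:16780369-16780618, minus strand and LEA18 at chr2:14863413-14863662, minus strand.
RD29B: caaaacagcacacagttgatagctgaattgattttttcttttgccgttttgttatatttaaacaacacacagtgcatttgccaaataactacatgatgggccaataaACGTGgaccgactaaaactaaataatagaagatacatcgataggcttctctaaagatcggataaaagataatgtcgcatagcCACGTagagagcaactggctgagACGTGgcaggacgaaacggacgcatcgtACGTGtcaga
LEA7: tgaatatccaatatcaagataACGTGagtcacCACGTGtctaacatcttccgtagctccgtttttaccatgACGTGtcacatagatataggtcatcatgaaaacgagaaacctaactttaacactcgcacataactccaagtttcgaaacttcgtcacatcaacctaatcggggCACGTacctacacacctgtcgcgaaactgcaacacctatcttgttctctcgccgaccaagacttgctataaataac
EM6: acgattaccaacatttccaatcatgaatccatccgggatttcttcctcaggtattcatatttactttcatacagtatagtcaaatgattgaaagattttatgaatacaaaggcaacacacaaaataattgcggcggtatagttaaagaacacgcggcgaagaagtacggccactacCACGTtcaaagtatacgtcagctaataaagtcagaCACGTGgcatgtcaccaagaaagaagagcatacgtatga
LEA18: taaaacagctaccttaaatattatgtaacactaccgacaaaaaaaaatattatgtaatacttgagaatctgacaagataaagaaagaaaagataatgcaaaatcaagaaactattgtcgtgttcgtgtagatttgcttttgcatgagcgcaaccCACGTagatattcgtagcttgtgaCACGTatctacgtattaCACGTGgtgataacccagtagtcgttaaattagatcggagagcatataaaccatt
RD29B and LEA7 hold 4 stretches with the core, EM6 holds 2 and LEA18 holds 3, while their log2 differences were -1.71, -1.94, -1.06 and 0.07. The core is in the 250 upstream bases of 23.5% of all tested nuclear genes, of 33.6% of those lower by at least 2-fold and of 23.6% of those higher by at least 2-fold. It is in 13 of 18 LEA promoters and 6 of 9 clade A phosphatase promoters. The CGCG core that CAMTA proteins are known to bind, searched on both strands, is in 11.3% of all upstream regions, in 10.3% of those of higher genes and in 11.9% of those of lower genes. Such matches describe the sequence and do not show that a protein binds there.

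RD29B (AT5G52300, chromosome 5, 21237056 to 21239529), a classic ABA-responsive gene, had 226, 182 and 182 CPM in wild type and 70.1, 46.9 and 63.7 CPM in camta6-5. The groups were well apart (log2 -1.71 ± 0.29, edgeR adjusted p = 0.000199), and both lay above the control means of 7.9 ± 3.6 and 10.7 ± 5.15 CPM. RD29A had 94.1, 66 and 78.9 and 22.2, 15.2 and 19.6 CPM (log2 -2.07 ± 0.25, edgeR adjusted p = 1.48e-05). Among 16 tested markers of ABA and stress 7 were lower, also ADH1 (-0.68), RD22 (-0.91) and RD26 (-0.59), and 5 were higher. The higher ones were HVA22A, HVA22C, HVA22D, ERD10 and KIN2. Without the 2 camta6-5 libraries richest in 18S rRNA 4 were called lower and 1 higher.

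Storage proteins, the nitrogen reserve of the seed, did not move as a group. The 2S albumin gene SESA3 had 1536, 1810.3 and 1490.0 CPM in wild type and 513, 362 and 457 CPM in camta6-5, with no overlap (log2 -1.86 ± 0.16, edgeR adjusted p = 8.89e-07), and SESA1 had 212, 218 and 211 and 68.4, 48 and 63.8 CPM (log2 -1.83 ± 0.15, edgeR adjusted p = 6.93e-07). Cruciferin CRA1, a 12S globulin, differed the other way with 5207, 4519 and 4193 and 9204, 6630.2 and 11438 CPM (log2 0.97 ± 0.26, edgeR adjusted p = 0.00535). PAP85, a vicilin-type globulin, was also called higher (log2 0.92 ± 0.34, edgeR adjusted p = 0.0306), but not in 5 of 15 settings. Cruciferin CRU3 (-0.24 ± 0.24), the albumin genes SESA2 (-0.16 ± 0.18) and SESA5 (0.49 ± 0.33) and 2 more were not called. Of 7 tested oil body genes 0 were higher and 3 lower. Caleosin CLO1, which sits on the oil body surface, had 203, 189.9 and 158 and 101, 75.8 and 96.4 CPM (log2 -1.01 ± 0.22, edgeR adjusted p = 0.00143). CLO2 and the steroleosin gene HSD5 were lower, at -0.92 and -1.07, while the oleosin genes OLEO1 to OLEO4 differed by -0.17, -0.50, -0.04 and -0.15 and were not called.

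**Figure D3:**
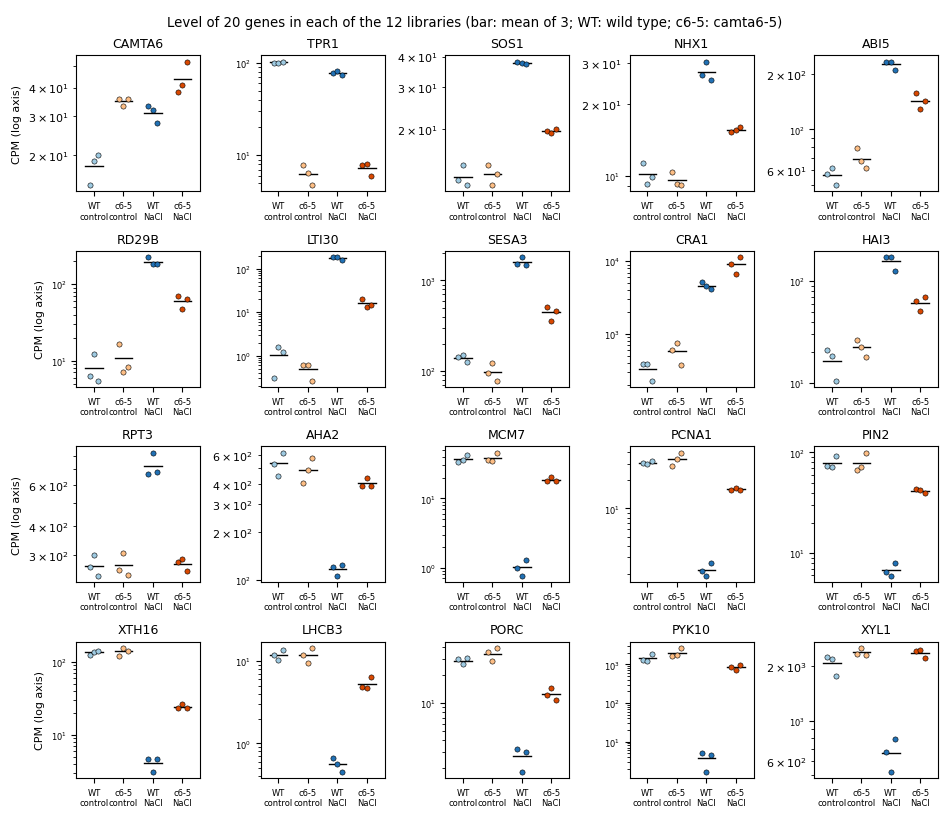
Each panel shows 1 gene, each point 1 of the 12 libraries and each bar the mean of 3, on a log axis in CPM that does not start at 0 and differs between panels. SOS1, NHX1, ABI5, RD29B, LTI30, SESA3, HAI3 and RPT3 are lower in camta6-5 NaCl than in wild-type NaCl, and AHA2, MCM7, PCNA1, PIN2, XTH16, LHCB3, PORC, PYK10 and XYL1 are higher, with no overlap between those groups.

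SOS1 and NHX1, the exchangers that carry sodium out of the cell and into the vacuole, were lower in camta6-5. SOS1 (AT2G01980, chromosome 2, 457010 to 463326) had 38.1, 37.4 and 37.1 CPM in wild type and 19.6, 19.3 and 20 CPM in camta6-5, 2 groups with little spread and no overlap (log2 -0.93 ± 0.085, edgeR adjusted p = 1.24e-06). Under control conditions the means were 12.7 ± 1.27 and 13 ± 1.24 CPM. NHX1 (AT5G27150, chromosome 5, 9553438 to 9557513) had 26.6, 30.4 and 25.3 and 15.2, 15.6 and 16.1 CPM (log2 -0.81 ± 0.096, edgeR adjusted p = 1.06e-05). NHX3, NHX6 and NHX2 were lower too, at -0.76, -0.65 and -0.43. The kinase and calcium sensor that activate SOS1, SOS2 and SOS3, differed by -0.08 ± 0.12 and -0.31 ± 0.18 and were not called, and NHX8 (0.34) and the sensor CBL10 (1.13) were higher. In this list 5 of 11 tested genes were lower and 2 higher, and the calls of NHX8 and CBL10 were lost without the 2 camta6-5 libraries richest in 18S rRNA. HKT1, the sodium transporter of the xylem, did not pass the filter, with 1 count over the 6 NaCl libraries, and was not compared.

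Of 15 tested proton pump genes 7 were higher, 1 was lower and the rest were not called. AHA2, a main H+-ATPase of the plasma membrane, had 120.0, 106 and 125 CPM in wild type and 388, 437 and 386 CPM in camta6-5, with all camta6-5 libraries above all wild-type libraries (log2 1.79 ± 0.14, edgeR adjusted p = 4.61e-07). AVP1 (AT1G15690, chromosome 1, 5398990 to 5402733), the vacuolar H+-pyrophosphatase, had 1510.4, 1509 and 1568 and 2441, 2659.8 and 2327 CPM (log2 0.70 ± 0.10, edgeR adjusted p = 6.85e-05). AHA3, DET3, VHA-A, AHA7 and AHA1 were higher by 0.92, 0.53, 0.42, 0.39 and 0.27, AHA11 was lower (-0.37), and the V-ATPase genes VHA-A2 and VHA-A3 were not called (0.01 ± 0.075 and 0.13 ± 0.072).

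Potassium channels and transporters were mixed, 8 of 23 being higher and 4 lower. The inward channel gene AKT1 (AT2G26650, chromosome 2, 11331850 to 11336607) had 42.2, 33.4 and 27.4 CPM in wild type and 20.5, 16.9 and 28.8 CPM in camta6-5 (log2 -0.64 ± 0.17, edgeR adjusted p = 0.00585). The groups of AKT1 did overlap, and without the 2 camta6-5 libraries richest in 18S rRNA its difference was -0.25 (edgeR adjusted p = 0.307). KUP9 was lower, with 215 ± 5.18 and 128 ± 2.65 CPM, and KUP12, KUP3 and KUP8 were higher by 0.75, 0.61 and 1.29. HAK5, the high-affinity uptake transporter, differed by 0.33 ± 0.25 and was not called. For osmoprotectants, P5CS1, the stress-induced enzyme of proline synthesis, was lower (-0.71), its relative P5CS2 was at 0.03 ± 0.06, and the proline breakdown gene P5CDH was higher (1.35). Galactinol synthase GOLS2 was lower (-0.54), DIN10 was higher (2.12), and of 13 tested genes 5 were higher and 4 lower. With the 2 camta6-5 libraries richest in 18S rRNA left out 5 potassium transport genes were called higher and 1 lower, and 1 osmoprotectant gene lower. Aquaporin genes, which encode water channels, were lower in 6 of 14 cases, with PIP1;2 at 286 ± 20.1 and 226 ± 1.94 CPM, and higher in 2, PIP1;3 (1.47) and PIP2;8 (1.03).

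Calcium sensor genes were higher or not called. Of 15 tested 10 were higher and 0 lower, with a median of 0.62. TCH3, a calmodulin-like gene first known from its response to touch, had 4.73, 5.77 and 5.43 CPM in wild type and 39.9, 33.1 and 47.5 CPM in camta6-5, which lay far apart (log2 2.92 ± 0.22, edgeR adjusted p = 3.04e-07). CAM3 had 49.6, 44.1 and 41.4 and 105, 95.6 and 113 CPM (log2 1.21 ± 0.11, edgeR adjusted p = 9.17e-07), CAM7, CAM5 and CBL9 were higher by 0.83, 0.70 and 0.95, and CAM1 and the kinase CPK6 were not called (-0.04 ± 0.067 and -0.11 ± 0.074). The DREB factors were split along another line. DREB19, DREB2C, DREB2B and RAP2.1 were lower, at -1.65, -1.40, -1.44 and -1.47, as was DREB2A, the main dehydration factor, at 213, 183 and 163 and 129, 107 and 139 CPM (log2 -0.58 ± 0.16, edgeR adjusted p = 0.00595). Of the cold-response factors CBF1 and CBF2 were higher (0.93 and 0.58), and CBF3 and CBF4 were not called. In all, 4 of 12 were higher and 5 lower.

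For enzymes of reactive oxygen, 13 of 23 tested genes were higher and 1 lower. The iron superoxide dismutase gene FSD1 had 1.78, 1.41 and 2.53 CPM in wild type and 7.31, 8.97 and 9.82 CPM in camta6-5, which did not overlap (log2 2.18 ± 0.34, edgeR adjusted p = 9.56e-05). FSD2 and FSD3, which act in the plastid, were higher by 0.65 and 0.65, the cytosolic ascorbate peroxidase APX1 by 1.01, and the catalase gene CAT2 was not called (-0.04 ± 0.073). RBOHF, an NADPH oxidase gene, had 3 counts in wild type and 44 in camta6-5, a ratio of 15.4 (95% counting interval 4.94 to 77.5). The glutathione peroxidase gene GPX6 was lower (-0.52). Chaperones showed no common direction, 4 being higher and 4 lower of 16. Heat shock factor HSFA2 was higher (9.42, 9.8 and 3.61 and 29.3, 22.6 and 23.7 CPM, log2 1.73 ± 0.44, edgeR adjusted p = 0.00378), and HSFA9, the factor of seed maturation, was lower (4.45 ± 1.01 and 1.39 ± 0.19 CPM, log2 -1.68 ± 0.21, edgeR adjusted p = 1.81e-05). The endoplasmic reticulum chaperone BIP3 had 449 counts in wild type and 2 in camta6-5, a ratio of 214 (95% counting interval 58.8 to 1771), while its relatives BIP1 and BIP2 were higher by 1.03 and 0.86.

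Genes of other hormones are given more briefly. In jasmonate, the synthesis genes LOX3, AOS, AOC3 and OPR3 were higher by 1.97, 1.60, 1.31 and 1.31, and the repressor genes JAZ3 and JAZ10 were lower, at -1.12 and -1.10, 8 higher and 5 lower in 15. In salicylic acid 4 of 8 tested genes were higher and 0 lower, and the calls of NPR1, NPR4, CBP60G and EDS5 were each lost in 1 to 6 of 15 settings. In ethylene 3 were higher, the receptor genes ERS1 (1.06) and ETR2 (0.91) and the synthase gene ACS6 (0.83), and 5 lower, among them the receptor gene ETR1 (-0.43) and the transcription factor gene EIN3 (421, 406 and 355 and 276, 245 and 276 CPM, log2 -0.57 ± 0.093, edgeR adjusted p = 0.000158). Of 15 tested clock genes 4 were lower, CCA1, PRR5, FKF1 and LKP2 (CCA1 at -1.10, LKP2 at -0.65), and 2 higher. With the 2 camta6-5 libraries richest in 18S rRNA left out 2 jasmonate genes and 2 ethylene genes were called lower and 2 salicylic acid genes higher.

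The 26S proteasome breaks down ubiquitin-tagged proteins, with a core of alpha and beta rings (PA and PB genes), a base with 6 ATPases (RPT genes) and further regulatory subunits (RPN genes). Of its 48 tested subunit genes 43 were lower in camta6-5 and 0 higher, against 28.5% of all genes lower, and the median was -0.65. The base ATPase gene RPT3 (AT5G58290) had 667, 824 and 683 CPM in wild type and 280.0, 291 and 258 CPM in camta6-5 (log2 -1.39 ± 0.11, edgeR adjusted p = 4.63e-07). RPT2a had 555, 679 and 567 and 262, 264 and 235 CPM (log2 -1.24 ± 0.12, edgeR adjusted p = 1.61e-06). RPN10, a ubiquitin receptor, had 367, 451 and 383 and 211, 227 and 183 CPM (log2 -0.95 ± 0.12, edgeR adjusted p = 1.87e-05). In each of these the camta6-5 libraries lay below the wild-type libraries and near the control means, which for RPT3 were 270.4 ± 27.7 and 272 ± 30.1 CPM and for RPN10 232 ± 23.8 and 233 ± 31.3 CPM. The core genes PBA1 and PAD1 were lower, at -0.95 and -0.99. The 5 genes not called were RPT1B (0.19 ± 0.088), RPT2B (-0.04 ± 0.074), RPN9A (-0.15 ± 0.079), PBD1 (-0.17 ± 0.11) and RPN12b (0.36 ± 0.26), and each has a paralogous copy among the lower genes. Together the subunits took 1.11, 1.26 and 1.16% of counts in the wild-type libraries and 0.688, 0.707 and 0.661% in the camta6-5 libraries, against 0.714 ± 0.0466% in wild-type control and 0.719 ± 0.0482% in camta6-5 control (SD, n = 3). The count of 43 was the same without the 2 camta6-5 libraries richest in 18S rRNA.

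The upstream regions of 3 base ATPase genes are printed because RPT2a and RPT3 were lower and RPT1B was not called, and all hold the site II element TGGGCC. They are the 250 bases before the gene from TAIR10.1, 5' to 3' on the gene's strand, with TGGGCC on either strand in capitals, at chr4:14312033-14312282, plus strand, chr5:23568802-23569051, plus strand and chr1:20079023-20079272, minus strand.
RPT2a: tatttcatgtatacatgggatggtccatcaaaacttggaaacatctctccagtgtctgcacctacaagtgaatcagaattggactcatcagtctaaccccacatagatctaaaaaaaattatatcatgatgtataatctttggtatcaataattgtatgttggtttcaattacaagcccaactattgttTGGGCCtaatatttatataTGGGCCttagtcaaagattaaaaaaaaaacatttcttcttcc
RPT3: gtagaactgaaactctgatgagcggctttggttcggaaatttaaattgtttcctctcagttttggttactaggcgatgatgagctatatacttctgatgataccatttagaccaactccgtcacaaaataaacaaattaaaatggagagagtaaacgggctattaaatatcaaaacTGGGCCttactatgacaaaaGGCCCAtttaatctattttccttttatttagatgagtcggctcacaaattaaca
RPT1B: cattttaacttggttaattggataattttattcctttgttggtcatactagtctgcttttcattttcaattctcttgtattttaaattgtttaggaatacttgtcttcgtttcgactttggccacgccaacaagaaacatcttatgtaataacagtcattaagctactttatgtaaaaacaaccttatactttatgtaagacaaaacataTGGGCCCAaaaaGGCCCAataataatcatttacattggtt
Each holds 2 stretches with the element. It is in 17.8% of all upstream regions, 18 of 48 of the proteasome genes and 46.1% of the ribosomal protein genes, of which more were higher than lower.

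Ribosomal protein genes, counted over cytosolic and organelle ribosomes, were higher in 194 of 317 tested cases and lower in 34, with a median of 0.32. SSR16, PSRP6 and RPL4, of the plastid ribosome, were higher by 1.34, 1.19 and 1.18. SSR16 had 186, 166 and 212 CPM in wild type and 446, 499.6 and 483 CPM in camta6-5, which did not overlap. All members together took 12.7 ± 0.824% of counts in wild type and 15.8 ± 0.632% in camta6-5, against 18.4 ± 0.392% in wild-type control (SD, n = 3). Without the 2 camta6-5 libraries richest in 18S rRNA 117 were called higher and 19 lower. Nucleolar proteins that build ribosomes did not follow, with 9 of 12 lower and 0 higher. Nucleolin NUC-L1 had 3200.4, 3426 and 3402 and 2313, 2427 and 2323 CPM (log2 -0.51 ± 0.082, edgeR adjusted p = 0.000144), the snoRNP core gene NOP56 was lower, at -0.66, the fibrillarin genes FIB1 and FIB2 were at -0.34 and -0.37, and CBF5 and NOP10 were not called.

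**Figure D4:**
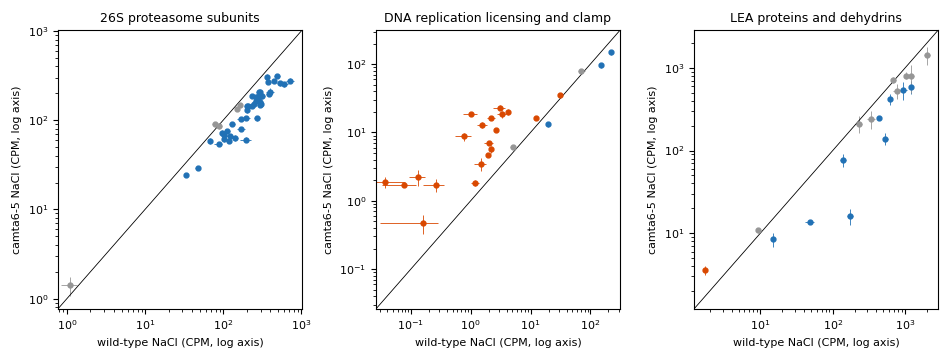
Each point is a tested member of the proteasome, DNA replication or LEA list, at its mean CPM in wild-type NaCl and camta6-5 NaCl on log axes with bars of 1 SD (n = 3, lower bars ending above 0 where the SD exceeds the mean) and the line of equality. Proteasome genes lie below the line in a narrow band (43 of 48 called lower), replication genes mostly above it (20 of 25 called higher) and LEA genes below it or near it (9 of 18 called lower).

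DNA replication starts with the origin recognition complex (ORC), to which CDC6 and CDT1 load the helicase of MCM2 to MCM7. Of 25 tested genes of this machinery 20 were higher and 3 lower in camta6-5, against 33.8% of all genes higher, with a median of 1.78. MCM7 had 0.973, 0.752 and 1.31 CPM in wild type and 18, 20.2 and 17.6 CPM in camta6-5 (log2 4.19 ± 0.18, edgeR adjusted p = 9.71e-09). MCM2 had 2.45, 2.98 and 3.78 and 24.4, 23.9 and 20.7 CPM (log2 2.91 ± 0.15, edgeR adjusted p = 2.14e-08). PCNA1, the sliding clamp, had 2.14, 1.89 and 2.62 and 15.9, 16.6 and 15.6 CPM (log2 2.85 ± 0.14, edgeR adjusted p = 1.5e-08). All camta6-5 libraries of these 3 genes lay well above the wild-type libraries and below the control means, which for MCM7 were 37.1 ± 4.39 and 38.8 ± 6.23 CPM. MCM3, MCM4, MCM5 and MCM6 were higher by 3.05, 2.26, 2.47 and 3.48, and CDC6 went from 0.0373 ± 0.0424 to 1.88 ± 0.362 CPM. The lower genes were ORC5 and the ribonucleotide reductase genes RNR1 and RNR2A, which supply deoxynucleotides, at -0.56, -0.59 and -0.66. The summed share of counts of the list was 0.0555 ± 0.00115% in wild type and 0.0553 ± 0.0031% in camta6-5 (SD, n = 3), and the groups overlapped in the sum. Most of that sum was RNR1, RNR2A and TSO2, so it says little about the other genes. RNR1 had 223 ± 10.6 and 149 ± 12.8 CPM, RNR2A 151 ± 13.2 and 96.1 ± 7.82 CPM, and TSO2 71.0 ± 9.42 and 78.3 ± 6.72 CPM. TSO2, another small subunit of ribonucleotide reductase, was not called (0.14 ± 0.11), and PCNA2 was higher by 0.21.

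MCM2, MCM5 and ORC2 are shown because their upstream regions hold a site for E2F factors, which drive S-phase genes. The 250 bases before each gene are from TAIR10.1, 5' to 3' on the gene's strand, with TTTCCCGC or TTCCCGCC on either strand in capitals, letters that overlap where both are present. They lie at chr1:16969964-16970213, plus strand, chr2:3527501-3527750, minus strand and chr2:15758351-15758600, plus strand.
MCM2: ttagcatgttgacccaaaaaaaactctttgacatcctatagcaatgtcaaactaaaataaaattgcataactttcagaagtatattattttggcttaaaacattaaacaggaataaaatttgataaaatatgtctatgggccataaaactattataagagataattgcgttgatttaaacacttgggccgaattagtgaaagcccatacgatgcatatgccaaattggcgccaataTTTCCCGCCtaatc
MCM5: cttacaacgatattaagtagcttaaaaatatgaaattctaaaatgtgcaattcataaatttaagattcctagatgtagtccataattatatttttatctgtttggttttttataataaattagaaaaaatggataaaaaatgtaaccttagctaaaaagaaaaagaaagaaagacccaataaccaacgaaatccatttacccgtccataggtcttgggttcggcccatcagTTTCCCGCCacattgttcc
ORC2: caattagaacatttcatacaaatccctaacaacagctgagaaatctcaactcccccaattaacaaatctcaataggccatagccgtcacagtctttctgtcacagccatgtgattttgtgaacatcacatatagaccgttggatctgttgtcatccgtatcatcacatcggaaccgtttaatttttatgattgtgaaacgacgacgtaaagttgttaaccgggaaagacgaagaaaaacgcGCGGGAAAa
Either sequence is in 0.916% of all upstream regions and in 9 of 25 of the replication genes.

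Among cyclins, cyclin-dependent kinases and their inhibitors 15 of 32 tested genes were higher and 6 lower, and 5 of those lower were inhibitors, KRP1, KRP3, KRP4, KRP6 and KRP7. CYCD3;2, a D-type cyclin of the G1 phase, had 34.3, 35.1 and 38.1 CPM in wild type and 71.3, 72.7 and 72.7 CPM in camta6-5 (log2 1.01 ± 0.076, edgeR adjusted p = 3.29e-07), while KRP6 had 22.6, 27.9 and 27.2 and 13.3, 12.6 and 11.6 CPM (log2 -1.05 ± 0.11, edgeR adjusted p = 5.02e-06). CYCA3;2 was higher by 2.25, CYCD4;1 by 1.97 and CYCA2;3 by 2.17. The mitotic genes CYCB1;1 (-0.30 ± 0.18), CDKB1;1 (-0.21 ± 0.33) and CDKB2;1 (0.10 ± 0.16) were not called. Histone genes were split, 11 higher and 12 lower of 28. HTR12, the centromeric H3, and the H2A.Z gene HTA11 were higher by 1.78 and 3.43. HTA1 and HTA13, both H2A genes, were lower, at -0.94 and -1.02, and 7 histone genes were called lower with the 2 camta6-5 libraries richest in 18S rRNA left out.

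Genes that loosen the growing wall were mostly higher. Of 19 tested XTH genes, whose enzymes break and rejoin xyloglucan, 14 were higher and 1 lower, with a median of 1.71 (1.71 with XTH17, which had no count in wild type, at its bound). XTH16 had 4.73, 3.16 and 4.63 CPM in wild type and 23.5, 26.2 and 23.5 CPM in camta6-5 (log2 2.54 ± 0.14, edgeR adjusted p = 3.2e-08). XTH5 had 31.9, 28.5 and 40.5 and 154, 154 and 177 CPM (log2 2.26 ± 0.14, edgeR adjusted p = 6.88e-08). Neither overlapped. XTH5 in camta6-5 lay between the wild-type and camta6-5 control means of 141 ± 15 and 176 ± 22.5 CPM, whereas XTH16 stood far under its own (133 ± 8.34 and 138 ± 16.6 CPM). XTH27 was lower (-1.31). Among 13 tested alpha-expansins 9 were higher, with EXPA3 at 228, 207 and 289.9 and 562, 651 and 554 CPM (log2 1.29 ± 0.13, edgeR adjusted p = 2.62e-06), EXPA20 was lower (-0.43), and EXPA10 was not called (-0.23 ± 0.20). EXPA2, a marker of the endosperm, was higher by 1.97.

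In auxin transport 8 of 9 tested carrier genes were higher and 0 lower, with a median of 1.84. PIN2, the efflux carrier of the root tip epidermis, had 6.56, 5.89 and 7.93 CPM in wild type and 43.2, 42.6 and 39.9 CPM in camta6-5 (log2 2.62 ± 0.17, edgeR adjusted p = 9.61e-08). AUX1, an influx carrier, had 8.7, 8.15 and 9.81 and 36.5, 42.8 and 35.2 CPM (log2 2.1, edgeR adjusted p = 2.14e-08). Both genes' groups were apart. The called root markers other than SCR moved with these genes, as given above, and their part was not tested. Among Aux/IAA repressors and GH3 conjugating enzymes 13 of 27 were higher and 6 lower. GH3.5 had 1.39, 1.2 and 2.16 and 17.5, 19.7 and 17.6 CPM (log2 3.52 ± 0.16, edgeR adjusted p = 9.75e-09), and IAA4 was higher by 2.03. IAA8 was higher by 0.36, IAA12 and IAA10 were lower, at -0.36 and -0.94, and IAA9 was not called (-0.02 ± 0.066). Of the lower calls in this list 2 were made with the 2 camta6-5 libraries richest in 18S rRNA left out.

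In gibberellin, the hormone that promotes germination, 4 of 13 tested metabolic genes were higher and 7 lower, and 2 and 3 with the 2 camta6-5 libraries richest in 18S rRNA left out. GA20OX3 had 160.2, 238 and 135 CPM in wild type and 35.7, 36.4 and 32.3 CPM in camta6-5, close to its control means of 30.4 ± 7.2 and 30 ± 7.46 CPM (log2 -2.35 ± 0.23, edgeR adjusted p = 2.4e-06). GA3OX2, which makes the active hormone in germinating seeds, had 6.45, 6.19 and 8.53 and 22, 37.8 and 19.7 CPM (log2 1.91 ± 0.22, edgeR adjusted p = 9.87e-06), with every camta6-5 library higher. GA3OX1 and KAO2 were higher as well (0.74 and 0.72), and GA2OX3, of an inactivating enzyme, was lower (-1.78). The DELLA genes RGA, GAI and RGL2 differed by 0.13 ± 0.084, 0.11 ± 0.099 and 0.20 ± 0.097 and were not called, and RGL1 was higher (0.84). The receptor genes GID1A, GID1B and GID1C were lower (-0.93, -0.85 and -0.41), the calls of GID1B and GID1C being lost in some settings.

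**Figure D5:**
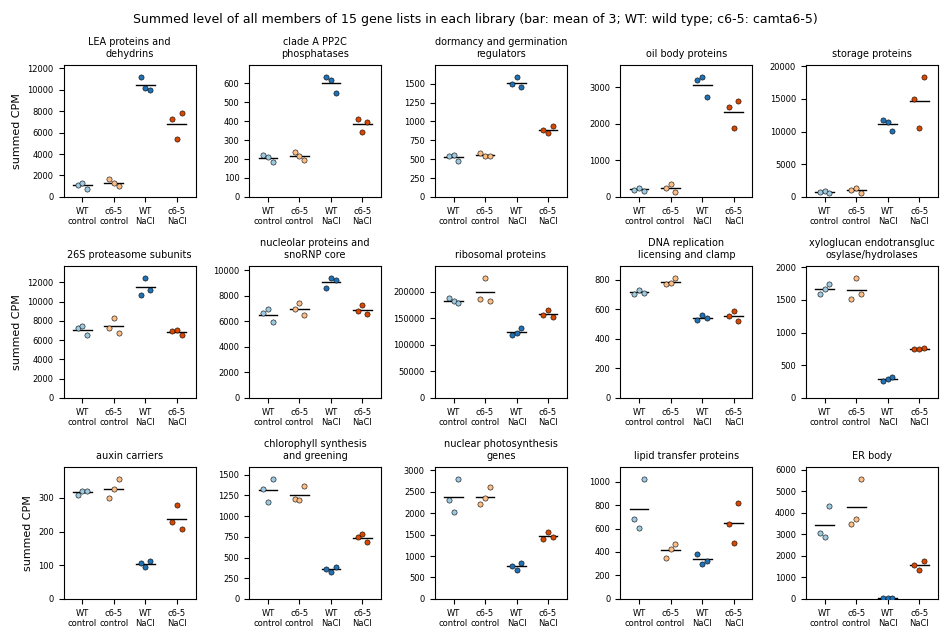
Each panel sums the CPM of all members of 1 gene list, with 1 point per library, a bar at the mean of 3 and an axis from 0. In camta6-5 NaCl the proteasome sum lies at the level of both controls, the LEA, phosphatase and dormancy sums lie between wild-type NaCl and the controls, the ER body, chlorophyll and xyloglucan enzyme sums lie between them from the other side, and the storage protein sums of the NaCl groups overlap.

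Genes for greening were mostly higher. In chlorophyll synthesis and its regulators 14 of 17 tested genes were higher and 0 lower, with a median of 1.22, and in the nuclear photosynthesis genes 30 of 49 were higher and 1 lower, with a median of 0.82. PORC, a protochlorophyllide oxidoreductase gene, had 3.23, 1.83 and 2.98 CPM in wild type and 12.2, 14.5 and 10.7 CPM in camta6-5 (log2 2.21 ± 0.19, edgeR adjusted p = 7.89e-07). CAO, which makes chlorophyll b, had 28.3, 25 and 33.6 and 79.8, 93.3 and 70.5 CPM (log2 1.49 ± 0.13, edgeR adjusted p = 7.63e-07). LHCB3, a light-harvesting protein gene, had 0.667, 0.571 and 0.455 and 4.81, 4.64 and 6.43 CPM (log2 3.22 ± 0.23, edgeR adjusted p = 2.36e-07). No library of wild type reached a camta6-5 library in these genes, and in the controls LHCB3 stood at 11.8 ± 1.55 and 11.9 ± 2.37 CPM. The transcription factor gene HY5, which promotes greening in light, was higher by 1.75, and GLK1 and GLK2, regulators of the chloroplast, by 0.62 and 0.38. CHLH and HEMA1 were not called (-0.38 ± 0.61 and 0.20 ± 0.11). LHCB7 was the 1 photosynthesis gene called lower (-0.70). Chloroplast-encoded genes are listed at 0 in all 12 libraries, and plastid transcripts were not compared.

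Mobilisation of seed oil runs from lipolysis through beta-oxidation and the glyoxylate cycle to sugar. In beta-oxidation and lipolysis 8 of 15 were higher and 5 lower, the lipase gene SDP1 at 233, 249 and 205 and 145, 139 and 146 CPM (log2 -0.68 ± 0.077, edgeR adjusted p = 7.88e-06) and ACX4, a short-chain acyl-CoA oxidase gene, higher by 0.75. In the glyoxylate cycle 6 of 11 were higher and 1 lower. Isocitrate lyase ICL had 5258, 5229 and 5008 CPM in wild type and 8634, 8169 and 9286 CPM in camta6-5 (log2 0.75 ± 0.12, edgeR adjusted p = 0.000164), which did not overlap. Malate synthase MLS was not called (0.11 ± 0.086), PCK1 was higher by 0.27, and PPDK was lower, at -0.66. The 8 higher calls of beta-oxidation became 5 without camta6-5 replicate 1 and 4 without the 2 camta6-5 libraries richest in 18S rRNA. The 6 of the glyoxylate cycle became 3 without wild-type replicate 1, 4 without camta6-5 replicate 1 and 3 without the 2 camta6-5 libraries richest in 18S rRNA.

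Wide gaps were found in genes of the ER body, a compartment of seedling epidermis and root that stores beta-glucosidases for defence. All 12 tested ER body genes, of 15 listed, were higher in camta6-5, with a median of 6.09 (5.64 with the 2 genes that had no count in wild type at their bound). The beta-glucosidase gene PYK10 (AT3G09260, chromosome 3, 2840477 to 2843781) had 5.17, 1.65 and 4.52 CPM in wild type and 882, 726 and 982 CPM in camta6-5 (log2 7.83 ± 0.38, edgeR adjusted p = 1.61e-08). The jacalin-related lectin gene JAL34 had 0.417, 0.15 and 0.171 and 67.5, 58.3 and 72.5 CPM (log2 8.03 ± 0.43, edgeR adjusted p = 3.2e-08). PBP1, whose product binds PYK10, had 2.81, 2.1 and 3.84 and 207, 196 and 238 CPM (log2 6.19 ± 0.27, edgeR adjusted p = 9.71e-09). All 3 camta6-5 libraries lay far above all wild-type libraries, and their means lay below the control means, which for PYK10 were 1468 ± 323 and 2021 ± 562 CPM. NAI1, the transcription factor gene required for ER bodies, went from 1.2, 0.451 and 1.08 to 12, 11.9 and 13.5 CPM (log2 3.76 ± 0.22, edgeR adjusted p = 5.64e-08), and NAI2, which shapes them, from 2.45 ± 0.783 to 96.3 ± 9.5 CPM. Against 3 counts over the group, BGLU21 and JAL31 were 22.4-fold and 78.4-fold higher, and the 95% counting intervals of their ratios start at 17.7 and 63.2. BGLU22 had 2 counts in wild type and 217 in camta6-5, a ratio of 114 (95% counting interval 31.2 to 947). All 12 were also called without the 2 camta6-5 libraries richest in 18S rRNA. These genes are expressed in roots. The root markers PLT1, PLT2, RHD6 and SHR were higher, by 0.79, 0.92, 0.88 and 2.36, and SCR was lower, at -0.19. The part of root tissue in these differences was not tested.

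Among called genes with no overlap and at least 5 CPM in the higher group, the 10 with the largest positive differences include 4 of these genes, JAL34, PYK10, PBP1 and NAI2. The others were BARD1 with 2 counts in wild type and 518 in camta6-5, a ratio of 272 (95% counting interval 74.9 to 2252), the extensin gene EXT3 (0.153 ± 0.0126 and 13 ± 1.6 CPM, log2 6.37), the nitrile specifier gene NSP1 (1.81 ± 0.375 and 91.8 ± 11.9 CPM, 5.66), MLP28 of the major latex protein family (7.04), AT5G23820 (7.19) and AT3G20370 (5.31). BARD1 is a partner of BRCA1 in DNA repair. The 10 with the largest negative differences were TPR1 and LTI30, given above, the auxin-transporter relative ABCB9 (17.4, 37.6 and 18.1 and 1.39, 1.37 and 2.48 CPM, log2 -3.82 ± 0.37, edgeR adjusted p = 2.21e-06), the cytochrome P450 genes CYP76C2 (-3.67) and CYP71B26 (-3.08), the glutathione transferase gene GSTU24 (-3.11), the plasma membrane calcium-binding protein gene PCAP1 (-3.17), the anion channel relative SLAH2 (-3.05), AT2G36540 (-3.44) and AT5G59540 (-3.24). Of 294 tested genes with at least 500 CPM over the 6 libraries 1 was higher by at least 2-fold and 9 were lower, with no overlap. The higher one was XYL1, an alpha-xylosidase that trims xyloglucan, with 673, 522 and 796 CPM in wild type and 2421, 2436 and 2211 CPM in camta6-5 (log2 1.83 ± 0.14, edgeR adjusted p = 3.65e-07). The 6 largest of the lower ones were SESA3, AT2G42560 (-1.65), UBQ14 (-1.54), AT3G17520 (-1.22), AT3G19920 (-1.33) and RPT3. Of the 31-letter words in the exons of UBQ14, a polyubiquitin gene, 48.2% are found in other genes.

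Genes of surface lipids were mostly higher. Of 23 tested wax and very-long-chain lipid genes 15 were higher and 2 lower, and 7 of 7 lipid transfer protein genes were higher. The elongase gene KCS20 had 10.6, 8.87 and 10.7 CPM in wild type and 44.2, 38.2 and 37.8 CPM in camta6-5 (log2 1.99 ± 0.17, edgeR adjusted p = 7.63e-07), LTP2 had 354, 274 and 296 and 576, 416 and 752 CPM (log2 0.92 ± 0.23, edgeR adjusted p = 0.00402), and neither overlapped. KCS8 and CER3 were higher by 1.59 and 1.69, CER2 and CER7 were lower, at -1.06 and -0.53, and CER1 was not called (0.99 ± 1.56). Without NaCl the lipid transfer protein genes took 0.0775 ± 0.0226% of counts in wild type and 0.0404 ± 0.00588% in camta6-5 (SD, n = 3), libraries that did not overlap and a difference that was not tested on the sum.

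Large families are given by their counts. NAC factors were lower in 30 of 53 cases and higher in 15. ANAC13 had 128, 147 and 102 CPM in wild type and 31.9, 29.4 and 40.1 CPM in camta6-5 (log2 -1.89 ± 0.15, edgeR adjusted p = 3.89e-07), ANAC040 and NAC032 were lower, at -1.94 and -1.38, and NAC094 had 0 counts in wild type and 70 in camta6-5, at least 24.5-fold higher. WRKY factors were higher in 14 of 37 cases and lower in 12, but more were lower than higher in 9 of 15 alternative settings. WRKY53 was higher by 2.68 and WRKY17 by 1.07, and WRKY25 and WRKY32 were lower, at -1.71 and -1.21. Of 126 cytochrome P450 genes 54 were higher and 33 lower, and of 30 glutathione transferase genes 11 and 8. GSTF8 and GSTU8 were higher by 2.07 and 4.0, and GSTU17 was lower, at -2.50. GASA peptides, 3 higher and 1 lower of 7, included GASA14 (2.94) and GASA6 (3.13) among the higher genes. Without the 2 camta6-5 libraries richest in 18S rRNA 7 NAC genes were called higher and 18 lower, and the lower calls were 7 for WRKY, 15 for P450 and 5 for glutathione transferase genes.

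Whether the genotype difference itself depended on NaCl was asked with the interaction term, the difference under NaCl minus that without. It was called for 48.1% of the 18515 tested genes in either direction. The genotype difference was higher with NaCl for 5017 genes and lower for 3888. The list counts that follow are by direction, so they are to be read against the matching total and not against 48.1%. Of the lists above, 42 of 48 proteasome genes, 10 of 18 LEA genes, 4 of 9 phosphatase genes and 6 of 11 dormancy regulators had a lower difference with NaCl, and 12 of 12 ER body, 17 of 25 replication, 7 of 9 auxin carrier, 14 of 19 XTH and 15 of 17 chlorophyll genes a higher one. Both measures contain the same NaCl libraries, so these counts are not a second test of the lists.

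Some counts are of uncertain origin, since the kit does not mark the strand and the settings for reads on more than 1 gene are not given in the sources used here. Of the genes with values above, CAMTA6, TPL, CAMTA3, MUM4, JAL34, PYK10, ABI1, SNRK2.4, SNRK2.1, SNRK2.5, SNRK2.3, ABF1, AFP1, AFP2, EEL, ABF3, PIF1, AAO3, RAB18, ADH1, HSD5, OLEO1, OLEO2, NHX3, NHX2, NHX8, CBL10, AVP1, DET3, AHA7, AHA11, AKT1, P5CS1, P5CS2, P5CDH, DIN10, TCH3, DREB19, DREB2B, DREB2A, CAT2, GPX6, HSFA9, JAZ10, ERS1, ETR1, LKP2, RPT3, PBD1, NUC-L1, NOP56, MCM7, CDC6, RNR2A, TSO2, PCNA2, CYCD3;2, CYCA2;3, CDKB1;1, CDKB2;1, HTA13, EXPA20, EXPA2, IAA10, IAA9, PORC, LHCB3, PPDK, EXT3, ABCB9, PCAP1, AT5G59540, UBQ14, CER2, CER7, ANAC13, WRKY53, GSTF8, GSTU17 and GASA6 overlap another annotated gene. More than 20% of the exon 31-letter words are found elsewhere in the annotated genes for MUM4, JAL34, SNRK2.5, HSD5, DET3, P5CDH, DREB2B, BIP1, BIP2, PCNA2, EXPA20, IAA10, EXT3, NSP1, UBQ14, CER2 and GASA6.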

How the data were processed

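The deposited table holds raw read counts per gene for 12 libraries, with no normalization. Per the labels' protocols, total RNA was made into libraries with the TruSeq RNA v2 kit, which does not mark the strand, and sequenced on an Illumina HiSeq. The submitters' processing notes name cutadapt 1.9, TopHat2 2.1.0, Bowtie2 2.2.6, HTSeq 0.6.1, DESeq2 1.10.0 and the TAIR10 build, and the settings are not given in the sources used here.

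From these counts, edgeR 4.0.16 (R 4.3.3) was run on all 12 libraries in 4 groups, with TMM factors and filterByExpr (minimum count 10, minimum total 15), which left 18515 genes and 8 residual degrees of freedom. The quasi-likelihood test was applied to the genotype contrast with NaCl, the contrast without NaCl and their difference, and p-values were adjusted over all tested genes by Benjamini-Hochberg at a threshold of 0.05. Standard errors were derived from the log2 difference and the F statistic, as their absolute value over the root of F. Counts were also simulated for 18411 genes with the camta6-5 NaCl means set to those of wild type. Only the genes counted next were changed, up and down in equal number, and all lay above 5 CPM. The test recovered 53 of 67 genes changed 1.5-fold, 67 of 67 changed 2-fold and 66 of 66 changed 4-fold, with 11 false calls. In the data 62.3% of genes were called, so the simulation gives no error rate for such a case or for lower levels. Counting intervals are exact at 95% and cover counting error only.

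Members and gene lists were chosen with earlier results of these data known. Named genes were a fixed set, the 10 largest differences in each direction among called genes with no overlap and at least 5 CPM in the higher group, up to 6 in each direction of at least 2-fold among genes of at least 500 CPM, and from each list those with the smallest adjusted p, those called against the majority, abundant members not called and members that name a role. Alternatives were other scaling factors, other filters, DESeq2 1.42.0, the 6 NaCl libraries alone, a replicate block, each NaCl library left out in turn, and counts without rRNA and organelle genes. Gene positions are those of the deposited table, and upstream sequences, overlaps and shared exon words come from RefSeq TAIR10.1 and its annotation, whose gene starts can differ from the deposited ones.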

Additional observations from a re-analysis of the deposited data

Results flagged for a closer look

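The genotype difference under NaCl differed from that without NaCl, by edgeR's interaction test, for 5017 genes in the higher and 3888 in the lower direction. The values below are that difference of differences on the log2 scale, and no explanation was tested. The genes with the largest differences and the abundant genes below were chosen by their difference under NaCl. The interaction contains that difference, so its size in those genes is not a separate result. Among the genes of the salt and ABA pathways it was -0.97 for SOS1, -0.73 for NHX1, 0.72 for AVP1, -0.96 for ABI5, 0.40 for ABI4 and -2.15 for RD29B. For TPR1 it was 0.59.

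Of the genes with the largest positive differences, the interaction was 8.02 for JAL34, 7.49 for BARD1, 7.36 for PYK10, 6.79 for AT5G23820, 7.15 for MLP28, 5.66 for EXT3, 6.07 for PBP1, 5.49 for NSP1, 4.83 for AT3G20370 and 4.70 for NAI2. Of those with the largest negative differences it was -2.50 for ABCB9, -2.56 for CYP76C2, -2.40 for LTI30, -2.50 for AT5G59540, -2.64 for PCAP1, -2.78 for GSTU24 and -3.13 for CYP71B26. Among abundant genes it was 1.63 for XYL1, -1.35 for SESA3, -2.16 for AT2G42560, -1.44 for UBQ14, -1.40 for RPT3, -1.55 for AT3G19920 and -1.88 for AT3G17520.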

How the results depend on the processing

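Over the other scaling factors, filters, DESeq2, the NaCl libraries alone and the counts without rRNA and organelle genes, between 11107 and 11754 genes were called, and in every one of the 15 settings 0 genes were called in the opposite direction. Leaving out 1 NaCl library at a time gave 5333 to 5910 genes higher and 4672 to 5302 lower, and for the interaction 4330 to 4762 higher and 3433 to 3924 lower. In a fit chosen after seeing the data, which omits both camta6-5 NaCl libraries with most 18S rRNA, 4700 genes were higher and 3397 lower. That setting leaves 1 camta6-5 NaCl library, assumed to vary like the other groups. Of 5268 values of 352 named genes under these settings, 97 lost the call, 79 gained one and 0 changed sign with a call. The share of calls that were higher ran from 49.9% to 58.0%, and the median of all genes, 0.05 with TMM, was 0.01 with RLE factors and ran from -0.0021 with only the NaCl libraries to 0.05 without camta6-5 replicate 2.

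With the replicate number as a block 11581 genes were called, 6287 higher and 5294 lower. Deviations of same-numbered libraries from their group means correlated at 0.05, -0.09 and -0.28. These values show no pairing by number, but with so few libraries they cannot exclude a shared culture or day. The labels name no shared culture or day. Depth limits the genes under 1 CPM most, of which 45.1% were called against 71.2% of those at 100 CPM or more.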
